A study of Mus musculus with 4 samples.

Results

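Kinesins are motor proteins that walk along microtubules. A set of 42 kinesin heavy chain genes, taken by name, was compared between control mouse retina and retina labelled Isl1cKO at E13.5. At this embryonic stage ganglion cells are being born. The members are all gene IDs of the form Kif or Kifc followed by a number and at most 1 letter, 42 of 25239 gene IDs. A kinesin gene under any other name was not a member. The 11 mitotic members (Kif4, Kif11, Kif14, Kif15, Kif18a, Kif20a, Kif20b, Kif22, Kif23, Kif2c and Kifc1) were set against the other 31. Among those 31, 16 were grouped as cargo kinesins, 7 as kinesins of the cilium and hedgehog pathway, and 8 as others.

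Mitotic kinesins build the spindle, move chromosomes and complete cytokinesis, so their RNA is found in dividing cells. Cargo kinesins carry vesicles, mitochondria and neurofilaments, and several of them are enriched in neurons, where axons depend on long-range transport. The embryonic retina holds both kinds of cell, dividing progenitors and newly born neurons, of which the ganglion cells send axons out of the eye.

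Each group had 2 libraries of poly(A)-selected RNA from dissected retina. The control group is labelled only as control and the other as Isl1cKO, a loss of Isl1, a LIM-homeodomain transcription factor of ganglion and amacrine cells. The labels used here name no Cre driver, allele, strain, litter or number of embryos per library, so p-values measure only the spread between these samples, which may be technical. Levels are given in the deposited unit, TPM, in which a gene's reads are divided by its length and every library has the same sum, and aligned sequence came to between 12.6 and 14.3 gigabases per library.

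Isl1 itself went against the labels. Isl1 stood at 242 and 201 TPM in the control libraries, against 321 and 223 TPM in those labelled Isl1cKO, a log2 difference of 0.28 (SE 0.21, adjusted p = 0.683 in limma). The tables give no value per exon, so every direction below rests on the labels alone. Replicate 2 of the libraries labelled Isl1cKO stood apart: Xist was at 0.501 TPM there and between 209 and 287 TPM in the others, and it had the least aligned sequence. The medians of gene lists below are therefore also given without it.

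No kinesin passed the test. Of the 42 members, 35 reached 1 TPM in at least 2 libraries and were tested within a fit of 13984 genes. With limma on log2(TPM + 1) and an adjusted p-value threshold of 0.05, 0 of these 35 were called, against 69 of all genes tested (0.493%; 0.465% lower and 0.0286% higher). Before adjustment, 5 of 35 members had p under 0.05, beside 12.1% of all genes (8.92% lower, 3.2% higher). Those 5 were the cargo kinesins Kif1a, Kif3c, Kif5a and Kif21b, lower in the libraries labelled Isl1cKO, and Kif26a, higher. Both libraries labelled Isl1cKO lay below both controls in 17 of the 35 members and above them in 2, so that the groups did not overlap in 19, beside 44.9% of all genes (30% lower, 14.9% higher). Log2 fold changes were below 0 in 29 of the 35, beside 63.8% of all genes. The lowest adjusted p-value of a member was 0.240, for Kif1a. Log2 fold changes ran from -0.61 for Kif19a to 0.54 for Kif26a, as the plot of fold changes shows.

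**Figure D1:**
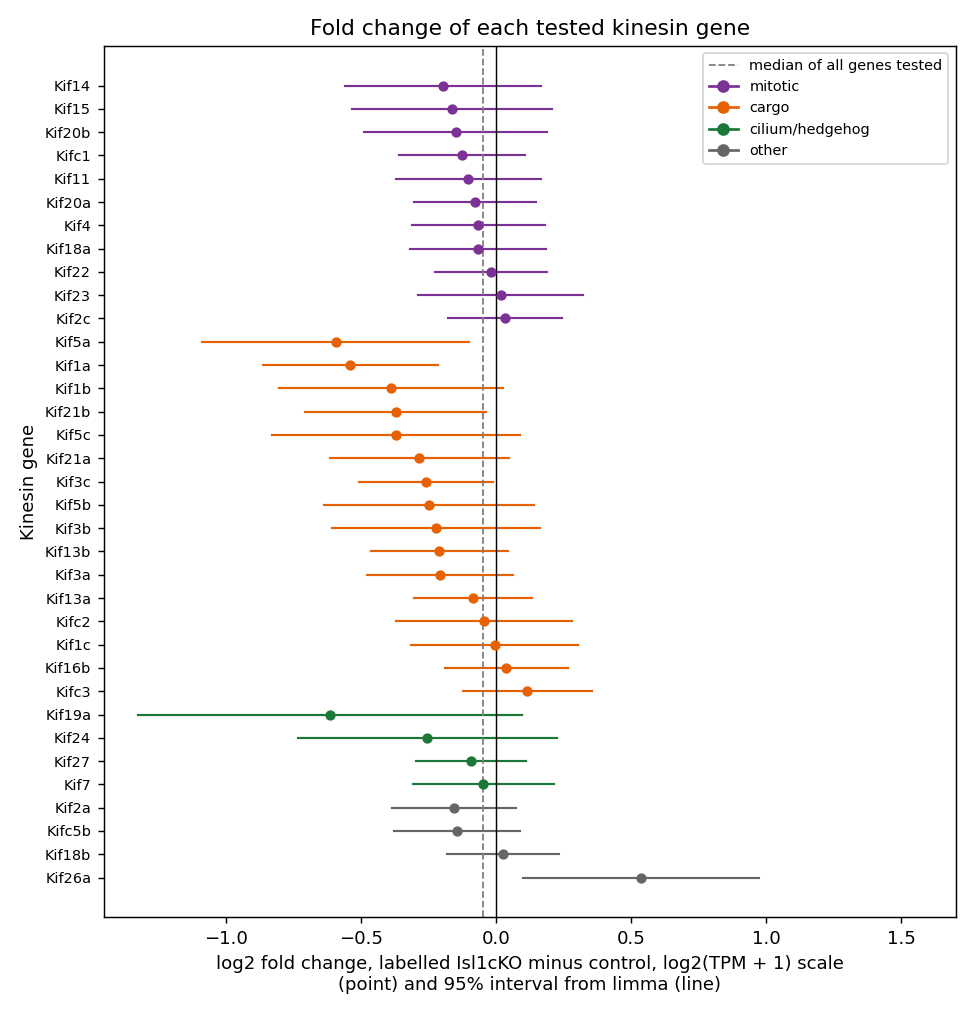
Log2 fold change of the 35 tested kinesin genes (x axis, libraries labelled Isl1cKO minus control on the log2(TPM + 1) scale) by gene (y axis) and coloured by role; points are fitted values from 2 against 2 libraries and lines their 95% intervals from limma, without adjustment over genes. The mitotic members sit between -0.20 and 0.03, near the dashed median of all genes at -0.05, while the cargo members reach -0.59.

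Kif22, Kif11 and Kif20a, all mitotic, were the 3 most abundant kinesins in control, while Kif14 ranked 28 of 42. All 11 mitotic members were tested. Their median log2 fold change was -0.08, beside -0.05 for all 13984 genes. It was 0.01 without Isl1cKO replicate 2 and 0.00126 after a correction for transcript length and GC content, so its sign was not stable. Before adjustment, 0 of the 11 had p under 0.05, beside 12.1% of all genes. In 3 of the 11 both libraries labelled Isl1cKO lay below both controls (27.3%), as they did in 30% of all genes tested. Both lay above both controls in 0 of the 11, beside 14.9% of all genes.

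Kif22, a chromokinesin that pushes chromosome arms towards the spindle equator, had the highest mean level of any member. Its levels were 174 and 171 TPM in control and 173 and 167 TPM in the pair labelled Isl1cKO, replicate 1 first here and throughout. The groups overlapped, and the log2 fold change was -0.02 (95% interval -0.23 to 0.19, adjusted p = 0.949 in limma). Its sign turned with FPKM and with median-ratio, upper-quartile and quantile scaling.

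Kif11, the motor that pushes the spindle poles apart, came next, at 149 and 147 TPM in control, against 148 and 129 TPM in those labelled Isl1cKO. Replicate 2 alone was low, and the groups overlapped. The log2 fold change was -0.10 (95% interval -0.37 to 0.17). Kif15, which can act beside Kif11 in the spindle, showed the same pattern, at 86.3 and 84.3 TPM in control and 86.0 and 67.5 TPM in the other group.

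The cytokinesis kinesins were read next. Kif20a, which takes the chromosomal passenger complex to the midzone, stood at 114 and 115 TPM in control, against 113 and 104 TPM in those labelled Isl1cKO. Kif23, the motor subunit of centralspindlin, stood at 87.3 and 97.1 TPM and at 100.1 and 86.7 TPM. Kif20b stood at 49.3 and 50.6 TPM and at 50.0 and 40.4 TPM. Kif14, which works with citron kinase at the midbody, was the least abundant mitotic member, at 14.0 and 14.3 TPM in control and at 13.9 and 10.8 TPM. Apart from Kif23, where replicate 2 was lowest by less than 1 TPM, these genes again differed mainly in that library. Log2 fold changes were -0.08 for Kif20a, 0.02 for Kif23, -0.15 for Kif20b and -0.20 for Kif14.

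The remaining mitotic members act on chromosomes, microtubule ends and spindle poles. Kif4, a chromokinesin, stood at 73.9 and 74.5 TPM in control, against 74.9 and 67.1 TPM in those labelled Isl1cKO. Kif2c, a motor that takes microtubule ends apart at the centromere, stood at 86.2 and 90.6 TPM and at 91.0 and 90.01 TPM, and was the mitotic member with the highest log2 fold change (0.03, 95% interval -0.18 to 0.25). Kif18a, which dampens chromosome oscillations at metaphase, stood at 46.8 and 45.4 TPM and at 46.6 and 41.5 TPM. Kifc1, a minus-end motor that clusters spindle poles, stood at 96.8 and 91.0 TPM and at 88.9 and 83.2 TPM, with non-overlapping groups and a log2 fold change of -0.12 (adjusted p = 0.653 in limma).

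The value of Kifc1 carries a further limit. Kifc5b is a near-identical gene on the same chromosome, counted here among the other kinesins, and 25.4% of the windows of 75 bases in the Kifc1 transcripts also occur in Kifc5b transcripts. Kifc5b stood at 33.9 and 37.0 TPM in control, against 32.3 and 31.7 TPM in those labelled Isl1cKO. How reads were divided between the copies is not given in the sources used here. Kif20a also overlaps Brd8 and Cdc23 on the opposite strand, and whether strand was used in counting is not given either.

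**Figure D2:**
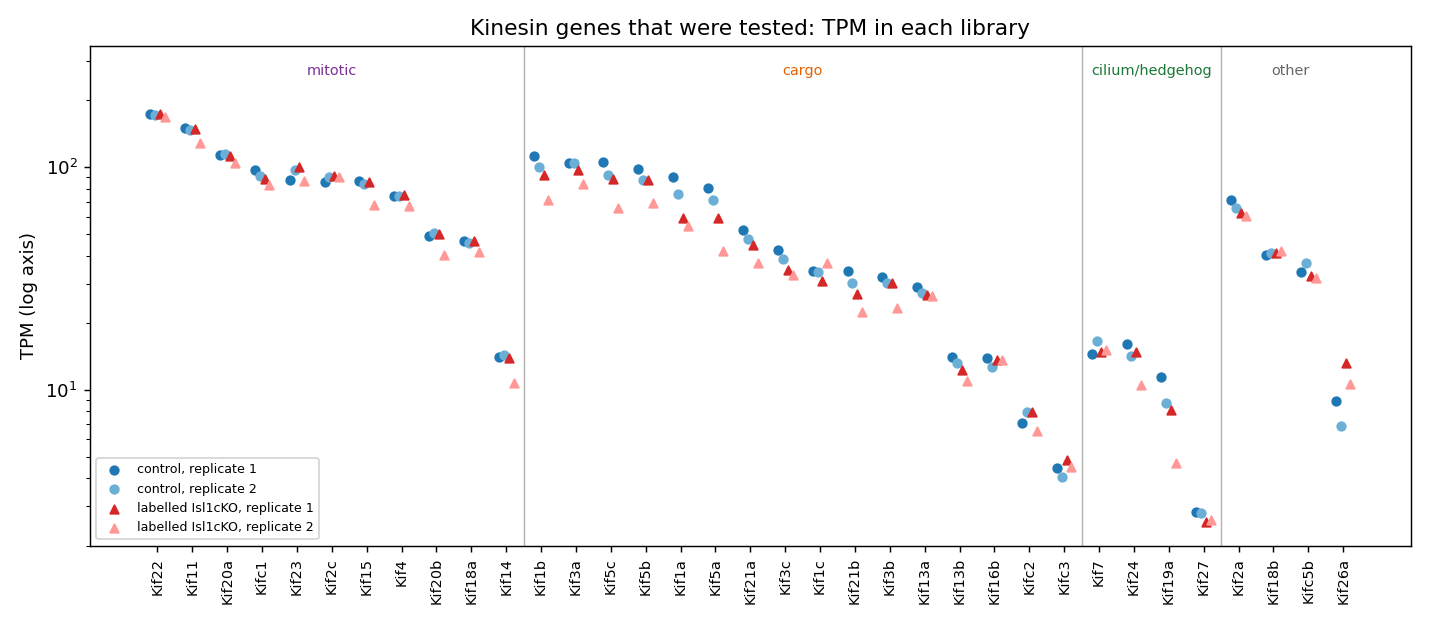
TPM (y axis, log scale) of the 35 tested kinesin genes (x axis), grouped by role and ordered by control mean; each point is 1 library, circles for control and triangles for the libraries labelled Isl1cKO. In Kif11, Kif14, Kif15 and Kif20b, replicate 2 of the libraries labelled Isl1cKO lies below the other points, which lie close together. Kif23, Kif2c and Kifc1 show no such pattern. The points of Kif1a, Kif5a and Kif21b separate by group.

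Genes of the late cell cycle are known for a promoter element called the cell cycle homology region, often with CCAAT boxes upstream, through which they are repressed in resting cells. The 300 bases around each annotated start (250 before and 50 after) were read for 33 of the 42 members from RefSeq on GRCm38.p6. The letters TTTGAA or TTTAAA were searched on both strands, where the latter reads the same on both, and CCAAT likewise. The first pair occurred in 9 of 10 mitotic windows and in 1 of 12 cargo windows, against 27.6% of 32851 windows of the same length. Counting only matches from 100 bases before the start onward, it occurred in 8 of the 10 mitotic windows and in 12.8% of all. In Kif4, Kif20b, Kif23 and Kifc1 these matches lay after the start. CCAAT occurred in 6 of 10 mitotic windows, 4 of 12 cargo windows and 37.4% of all. The 12 cargo windows came from 10 genes, and both Kif1b windows overlap and share their CCAAT sites. The Kif2c window, among the 9, belongs to an annotated start inside the gene's interval. Its matches lie 234 and 103 bases before that start. Kif18a held neither in its window. These are matches of letters, not measured binding.

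The 120 bases before the start are shown for 4 mitotic members with such a match close before the start. Those of 3 cargo members discussed below, picked without either motif in the printed bases, follow. Capitals mark the letters of either motif, on either strand. TTCAAA is the first motif and ATTGG the other one when read on the opposite strand. Sequences run 5′ to 3′ on the strand of the gene, which is plus for Kif11 (chr19:37376262-37376381), Kif15 (chr9:122950961-122951080), Kif14 (chr1:136467728-136467847), Kif5c (chr2:49619166-49619285) and Kif3c (chr12:3365012-3365131), and minus for Kif22 (chr7:127042421-127042540) and Kif1a (chr1:93101875-93101994).
Kif11: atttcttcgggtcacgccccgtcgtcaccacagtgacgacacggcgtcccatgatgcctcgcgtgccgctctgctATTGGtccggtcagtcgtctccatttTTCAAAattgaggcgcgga
Kif15: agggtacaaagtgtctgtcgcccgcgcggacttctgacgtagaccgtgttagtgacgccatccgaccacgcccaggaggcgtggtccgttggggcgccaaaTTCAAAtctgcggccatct
Kif22: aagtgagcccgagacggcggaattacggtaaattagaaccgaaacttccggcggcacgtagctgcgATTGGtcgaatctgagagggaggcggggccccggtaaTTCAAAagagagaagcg
Kif14: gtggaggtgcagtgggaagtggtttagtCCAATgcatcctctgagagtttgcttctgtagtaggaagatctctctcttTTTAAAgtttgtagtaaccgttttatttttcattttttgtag
Kif1a: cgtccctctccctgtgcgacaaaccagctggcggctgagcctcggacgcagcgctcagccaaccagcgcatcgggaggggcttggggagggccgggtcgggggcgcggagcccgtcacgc
Kif5c: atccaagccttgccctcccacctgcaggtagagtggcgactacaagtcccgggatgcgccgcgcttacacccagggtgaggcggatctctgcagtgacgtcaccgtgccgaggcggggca
Kif3c: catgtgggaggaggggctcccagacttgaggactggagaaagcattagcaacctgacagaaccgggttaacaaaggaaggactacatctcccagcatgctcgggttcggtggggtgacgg
The match begins 19 bases before the start in Kif11 and Kif15, 17 in Kif22 and 42 in Kif14. The printed bases of Kif1a, Kif5c and Kif3c hold neither motif. The cargo members Kif1b, Kif3a and Kif3b, not printed, hold CCAAT in their windows. Kif1a has a second annotated start inside the gene, and its window supplied the 1 cargo match.

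Cargo kinesins had a lower median than mitotic ones. All 16 were tested, and their median log2 fold change was -0.23, beside -0.08 for the mitotic members and -0.05 for all genes. It was -0.13 if Isl1cKO replicate 2 was left out, -0.35 if replicate 1 was, and -0.16 after the length and GC correction. In 10 of the 16 (62.5%) both libraries labelled Isl1cKO lay below both controls, as they did in 30% of all genes tested, and in 1 (Kifc3) above. Of the 16, 4 had an unadjusted p-value under 0.05, all lower, beside 8.92% of all genes lower at that level, and 0 passed after adjustment in limma.

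Kif1a, which carries synaptic vesicle precursors and dense-core vesicles along axons, had the lowest p-value. It lies on chromosome 1 (93015455 to 93101874, minus strand). It stood at 90.6 and 75.7 TPM in control, against 59.3 and 54.3 TPM in those labelled Isl1cKO. Both of the latter were below both controls, and the difference of the means was larger than the SD within either group (83.2 ± 10.6 against 56.8 ± 3.55 TPM, n = 2 each). On the log2 scale this was -0.54 (SE 0.12, 95% interval -0.86 to -0.21) with an adjusted p of 0.240 in limma. With the replicate number as a block the adjusted p was 0.0943 in limma, the lowest of the alternatives with all 4 libraries, and the highest was 0.359. Leaving out each library in turn gave log2 fold changes of -0.67 to -0.41.

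Kif1b, its paralog with mitochondrial and vesicle cargo, stood at 113 and 100.4 TPM in control and at 92.4 and 71.2 TPM in the other group. Both libraries labelled Isl1cKO were again lower, by -0.39 on the log2 scale (95% interval -0.80 to 0.03, adjusted p = 0.442 in limma). The broadly expressed Kif1c stood at 34.3 and 33.6 TPM and at 30.9 and 37.2 TPM. Its groups overlapped, and its sign changed with the scaling.

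The conventional kinesins carry cargo with kinesin light chains, and Kif5a and Kif5c are the neuronal heavy chains while Kif5b is made in most cells. Kif5a (chromosome 10, 127225695 to 127263363, minus strand), the motor for neurofilaments, stood at 80.2 and 71.5 TPM in control, against 59.0 and 42.1 TPM in those labelled Isl1cKO. The groups did not overlap. The log2 fold change was -0.59 (SE 0.18, 95% interval -1.09 to -0.10), with an adjusted p of 0.342 in limma, and it was -0.35 with Isl1cKO replicate 2 left out and -0.83 with replicate 1 left out.

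Kif5c stood at 105 and 92.1 TPM in control, against 88.1 and 65.6 TPM in those labelled Isl1cKO, without overlap (log2 fold change -0.37, 95% interval -0.83 to 0.09). Kif5b stood at 97.9 and 87.8 TPM and at 87.9 and 69.3 TPM. In Kif5b the higher of the latter lay just above the lower control, so the groups overlapped, and the log2 fold change was -0.25 (95% interval -0.63 to 0.14).

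Ratios of 2 genes within a library do not depend on how libraries are scaled. The ratio of Kif5a to Kif5b, chosen after the values were seen, was 0.819 and 0.814 in control and 0.671 and 0.608 in the libraries labelled Isl1cKO. The groups were apart by more than the spread within either. Annotated transcripts are longer on average for Kif5a (3668 bases) than for Kif5b (1950 bases), and length moved with the values, as given below. After the length and GC correction the log2 fold changes were -0.50 for Kif5a and -0.18 for Kif5b. The part of length in this ratio was not tested. Kif5a made up 28.3% and 28.4% of summed Kif5 TPM in control and 25.1% and 23.8% in the other group. The ratio of Kif21b to Kif21a was 0.652 and 0.635 against 0.601 and 0.604. The ratio of Kif5c to Kif5b was 1.08 and 1.05 against 1.003 and 0.946. Kif1a over Kif1b overlapped between groups, at 0.805 and 0.754 against 0.642 and 0.763. With 2 libraries a group, an exact two-sided permutation test cannot go below 0.333, so no p is given for these ratios.

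**Figure D3:**
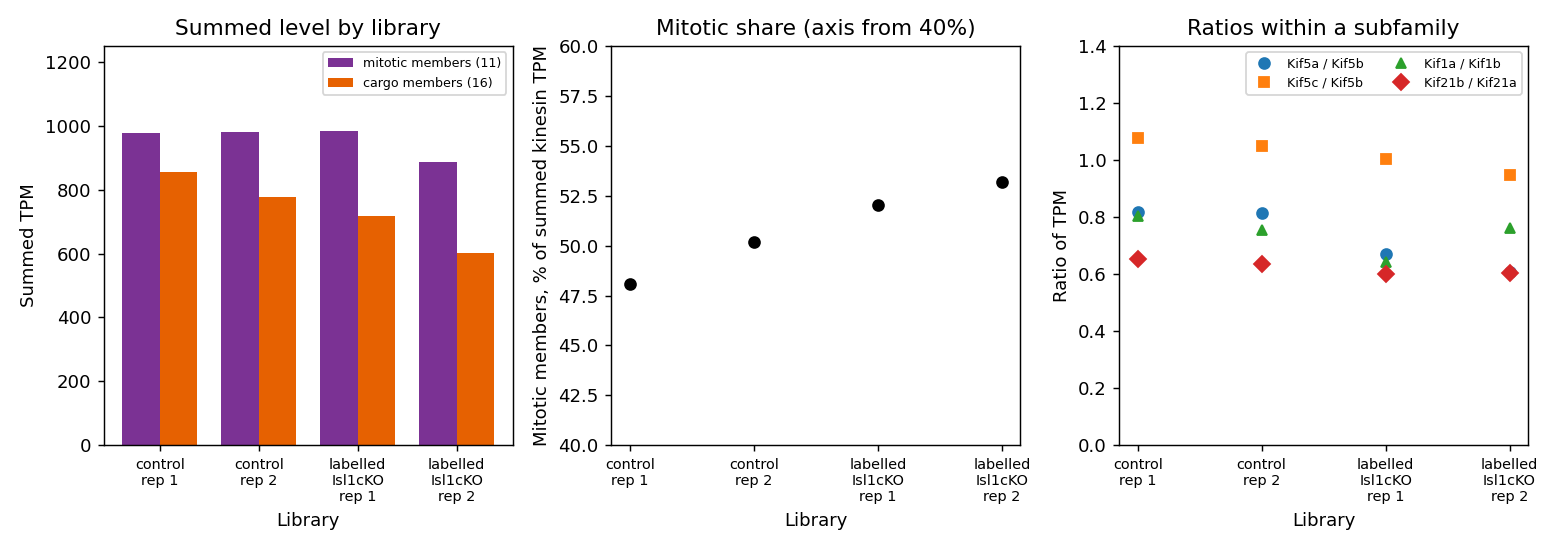
Left, summed TPM of the 11 mitotic and 16 cargo members in each of the 4 libraries (bars); middle, the mitotic members' percentage of all kinesin TPM (points, axis from 40%); right, ratios of TPM between 2 genes of a subfamily (points). The mitotic sum stays between 887 and 985 TPM, while the cargo sum is 854 and 777 TPM in control and 716 and 602 TPM in the libraries labelled Isl1cKO.

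Summed over genes, mitotic members came to 977 and 981 TPM in control and to 985 and 887 TPM in the libraries labelled Isl1cKO. Cargo members came to 854 and 777 TPM and to 716 and 602 TPM, without overlap. Of all kinesin TPM, mitotic members made up 48.1% and 50.2% in control and 52.0% and 53.2% in the other group. The difference of the means was 3.49 percentage points, and 2.92 without Isl1cKO replicate 2. The nearest libraries of the groups were closer to each other than the controls were.

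Heterotrimeric kinesin-II serves both axons and cilia. Kif3a, a subunit of it, stood at 104 and 105 TPM in control, against 96.9 and 84.1 TPM in those labelled Isl1cKO, with a log2 fold change of -0.21 (95% interval -0.48 to 0.06). Its partner Kif3b stood at 32.0 and 30.0 TPM and at 30.1 and 23.3 TPM, and its groups overlapped. Kif3c, the partner best known from neurons, stood at 42.7 and 38.5 TPM and at 34.6 and 32.8 TPM, without overlap. The log2 fold change of Kif3c was -0.26 (SE 0.09, 95% interval -0.51 to -0.01, adjusted p = 0.396 in limma). It overlaps other genes on the opposite strand, with up to 10.9 TPM.

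Kif21a and Kif21b slow microtubule growth as well as moving along microtubules. Kif21b, found mostly in neurons and immune cells, stood at 34.0 and 30.2 TPM in control, against 26.9 and 22.4 TPM in those labelled Isl1cKO. Kif21a stood at 52.2 and 47.6 TPM and at 44.7 and 37.1 TPM. Neither overlapped between groups, with log2 fold changes of -0.37 for Kif21b (95% interval -0.71 to -0.04) and -0.28 for Kif21a (95% interval -0.61 to 0.05).

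The endosomal and minus-end members follow. Kif13a and Kif13b, at 28.2 and 13.6 TPM in the control mean, had log2 fold changes of -0.08 and -0.21, and Kif16b, which carries early endosomes, one of 0.04. Kifc2 stood at 7.51 TPM in the control mean with a log2 fold change of -0.04. Kifc3 was higher in both libraries labelled Isl1cKO, at 4.85 and 4.50 TPM against 4.44 and 4.04 TPM, a log2 fold change of 0.12 (adjusted p = 0.690 in limma). The cargo members with log2 fold changes above 0 were Kif16b and Kifc3, and those of Kif1c and Kifc2 were close to 0.

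Kinesins of the cilium and hedgehog pathway were low by comparison. Kif7, which sits at the tip of the cilium and regulates Gli factors, stood at 14.5 and 16.6 TPM in control, against 14.8 and 15.1 TPM in those labelled Isl1cKO. The groups overlapped, and the log2 fold change was -0.05 (95% interval -0.31 to 0.21). Kif7 overlaps Ticrr on the opposite strand. Its paralog Kif27 stood at 2.84 and 2.79 TPM and at 2.55 and 2.61 TPM. Kif24, which acts at the mother centriole, stood at 16.02 and 14.2 TPM and at 14.8 and 10.5 TPM.

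Kif19a, which shortens microtubules at the tip of motile cilia, had the most negative log2 fold change of any tested member. It lies on chromosome 11 (114765389 to 114790575). It stood at 11.4 and 8.75 TPM in control, against 8.10 and 4.68 TPM in those labelled Isl1cKO. The groups did not overlap, but the replicates were far apart (10.1 ± 1.88 against 6.39 ± 2.42 TPM, n = 2 each). On the log2 scale this was -0.61 (SE 0.27, 95% interval -1.32 to 0.10, adjusted p = 0.472 in limma), and -0.27 without Isl1cKO replicate 2.

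Kif26a was the 1 member that was higher by more than 0.5. It encodes an unconventional kinesin without motor activity that restrains GDNF-Ret signalling in enteric neurons. It lies on chromosome 12 (112146208 to 112181747, plus strand) and overlaps no other gene of the tables. It stood at 8.89 and 6.90 TPM in control, against 13.2 and 10.6 TPM in those labelled Isl1cKO. Both of the latter lay above both controls, with a log2 fold change of 0.54 (SE 0.16, 95% interval 0.10 to 0.97) and an adjusted p of 0.339 in limma. Leaving out each library in turn gave 0.37 to 0.70. The adjusted p was 0.0863 in limma with the replicate block, and ran from 0.0552 to 0.432 over the alternatives with all 4 libraries.

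Its paralog Kif26b stood at 1.38 and 0.939 TPM in control, against 0.472 and 0.460 TPM in those labelled Isl1cKO. It reached 1 TPM in a single library and was not tested. The paralogs thus lay in opposite directions, a pattern chosen after the values were seen.

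Kif18b and Kif2a complete the tested members. Kif18b, a motor of the mitotic spindle that the mitotic list does not hold, stood at 40.3 and 41.3 TPM in control, against 41.0 and 42.2 TPM in those labelled Isl1cKO. Its log2 fold change was 0.03 (95% interval -0.18 to 0.23), within the range of the mitotic list. Kif2a, a microtubule-shortening motor of spindles and of growing axons, stood at 71.1 and 65.8 TPM and at 62.5 and 60.1 TPM, without overlap (log2 fold change -0.16, adjusted p = 0.572 in limma).

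The other untested members were Kif6, Kif9, Kif12, Kif17, Kif28 and Kif2b. Kif6, Kif9 and Kif17 stayed below 1 TPM in every library, and Kif28 below 0.1 TPM. Kif12 and Kif2b were listed at 0 in all 4 libraries, and no limit of detection can be given because depth in reads is unknown.

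Partner genes were read from lists of the same pathways. Those that act with the mitotic kinesins numbered 28 (the centralspindlin partner Racgap1, Cenpe, Aurora kinases, cyclin B genes and others). Of these 0 passed, beside 0.493% of all genes, and in limma 0 had an unadjusted p-value under 0.05, beside 12.1%. Both libraries labelled Isl1cKO lay below both controls in 7 of the 28, beside 30% of all genes. Both lay above both controls in 3, beside 14.9%. The median log2 fold change of the 28 was -0.05, beside -0.05 for all genes, and 0.0017 if Isl1cKO replicate 2 was left out. Kntc1, of the kinetochore checkpoint, was at 38.3 and 39.2 TPM in control and 37.8 and 27.5 TPM in those labelled Isl1cKO. Racgap1 stood at 232 and 219 TPM in control, against 200.2 and 207 TPM in those labelled Isl1cKO, a log2 fold change of -0.15 (adjusted p = 0.571 in limma).

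Of 20 adaptor genes of cargo kinesins, 0 passed, 7 had an unadjusted p-value under 0.05 in limma, all lower, beside 8.92% of all genes. The median log2 fold change was -0.22, and -0.15 if Isl1cKO replicate 2 was left out. In 13 of the 20 both libraries labelled Isl1cKO lay below both controls, against 30% of all genes. Arl8a, which links lysosomes and synaptic vesicle precursors to kinesins, stood at 90.1 and 85.8 TPM in control and at 58.4 and 57.0 TPM, a log2 fold change of -0.60 (SE 0.08, adjusted p = 0.103). Its adjusted p in limma was 0.0211 with a mean-variance trend, the lowest of the alternatives with all 4 libraries, and the highest was 0.171. Trak1, the mitochondrial adaptor of Kif5, stood at 11.6 and 11.6 TPM and at 6.90 and 7.90 TPM (log2 fold change -0.59, adjusted p = 0.145). Klc1, the main neuronal light chain, stood at 476 and 438 TPM and at 371 and 289 TPM (log2 fold change -0.48, adjusted p = 0.342).

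Dynein and dynactin genes, which drive transport in the opposite direction, had a median of -0.11 on the log2 scale over 23 tested genes, and -0.05 if Isl1cKO replicate 2 was left out. Of these, 0 passed and 4 had an unadjusted p-value under 0.05 in limma, all lower, beside 8.92% of all genes. In 14 of the 23 both libraries labelled Isl1cKO lay below both controls, beside 30% of all genes. Dctn1, the large dynactin subunit, stood at 162 and 155 TPM in control and at 121 and 117 TPM (log2 fold change -0.41, adjusted p = 0.192). Of 26 genes of intraflagellar transport and the cilium, 0 passed, and 1 had an unadjusted p-value under 0.05 in limma (Bbs5, higher), beside 3.2% of all genes. Both libraries labelled Isl1cKO lay above both controls in 10 of the 26, beside 14.9% of all genes, and below them in 4. The median was 0.02, and 0.06 if Isl1cKO replicate 2 was left out.

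**Figure D4:**
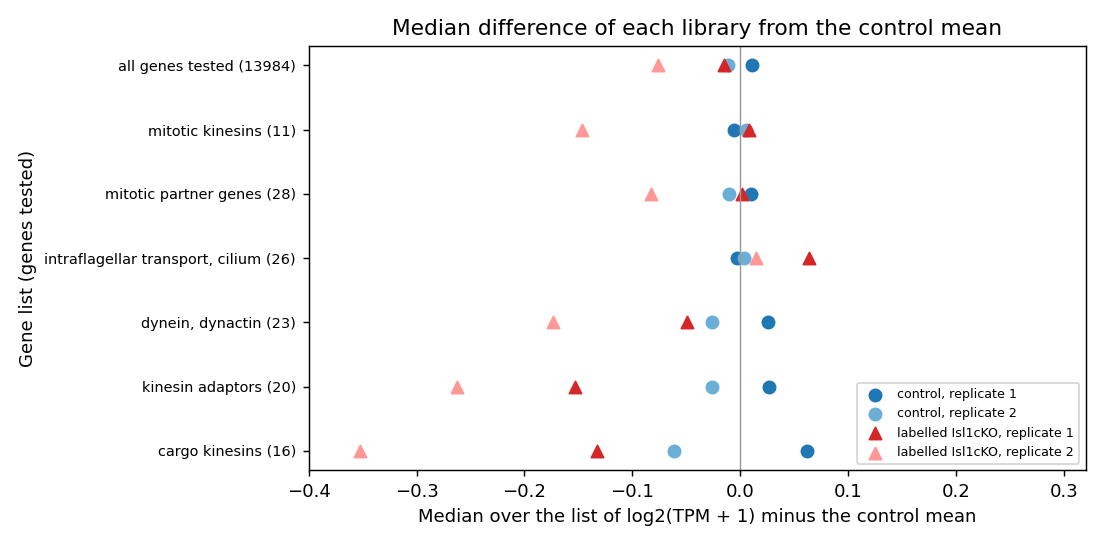
Median over the tested genes of each list (y axis, number of genes in brackets) of the library's log2(TPM + 1) minus the control mean (x axis); each point is 1 library. Both libraries labelled Isl1cKO lie left of both controls for all genes tested, cargo kinesins, kinesin adaptors and dynein genes, farthest for cargo kinesins in replicate 2 (-0.35), while replicate 1 is at 0.01 for the mitotic kinesins.

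Other measures moved with these differences. Of 18 ganglion cell markers, 16 were below both controls in both libraries labelled Isl1cKO, beside 30% of all genes, and 2 (Irx2 and Nell2) passed the test, both lower. The median log2 fold change was -1.11, and -0.94 if Isl1cKO replicate 2 was left out. The summed level of the list was 4576 and 3913 TPM in control and 2564 and 1807 TPM in the other group. The 2 markers that overlapped between groups were Isl1 itself and Pou4f2 (126 and 124 against 135 and 120 TPM). The cargo kinesin median of -0.23 was smaller than that of the markers. In whole retina, fewer cells of a type and less RNA per cell cannot be told apart, and the part of the ganglion cell markers in the kinesin values was not tested. The 12 progenitor markers had a median of 0.04, which was -0.12 if Isl1cKO replicate 2 was left out. Of these Ccnd1, singled out after the values were seen, was at 1944 and 1498 TPM in control, against 848 and 961 TPM in those labelled Isl1cKO.

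Markers of tissue that dissection can carry over also differed. Of 13 tested lens genes, 9 passed, all lower, beside 0.465% of all genes, and the summed level of the list went from 245 and 299 TPM in control to 13.01 and 10.4 TPM. The lens median was -2.87, and -2.82 if Isl1cKO replicate 2 was left out, as in each second value that follows. The 9 tested red blood cell genes had a median of -2.41, then -1.09, and the 9 microglia genes one of 0.32, then 0.22. The medians were -0.35, then -0.12, for the 7 tested of 9 pigment epithelium genes, and -0.24, then -0.02, for the 5 tested of 10 mesenchyme genes. For the 2 tested of 8 endothelium genes, Kdr and Cldn5, they were -0.34 and -0.23. The control mean of Kdr was 63.0 TPM, far above the 6.28 TPM of Cldn5, and which cells made the Kdr RNA was not tested. The untested Pecam1, Cdh5, Tek, Tie1, Emcn and Esam reached 1 TPM in at most 1 library. Their means were 65.4% to 95.5% lower in the libraries labelled Isl1cKO, and control replicate 1 was highest in each. The part of these tissues in the kinesin values was not tested.

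Transcript length also moved with the values, and kinesin transcripts are long. Genes were put in 5 equal bins by mean annotated transcript length. In the bin of longest transcripts, which holds 10 of the 16 cargo members and 3 of the 11 mitotic ones, the median of Isl1cKO replicate 2 was -0.16 from the control mean, against -0.03 in the bin of shortest ones. In Isl1cKO replicate 1 these medians were -0.03 and 0.00424. After the length and GC correction, added after seeing the data, the medians were -0.16 for cargo kinesins, 0.00126 for mitotic kinesins and near 0 for all genes. Kif5a then had a log2 fold change of -0.50, Kif1a one of -0.46 and Kif26a one of 0.62.

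**Figure D5:**
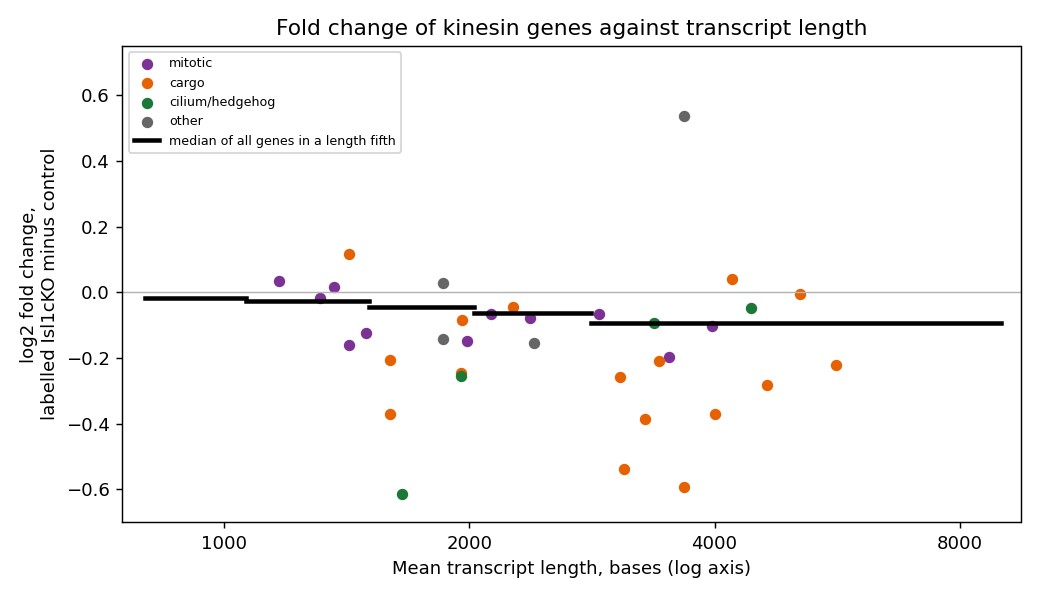
Log2 fold change of the 35 tested kinesin genes (y axis, libraries labelled Isl1cKO minus control) against the mean length of the gene's annotated transcripts (x axis, log scale), coloured by role; black lines are the medians of all tested genes in 5 equal bins of length. The black lines go from -0.02 to -0.09, and most cargo members lie below them.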

How the data were processed

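RNA of dissected retina was measured in 2 control libraries and 2 libraries labelled Isl1cKO. Per the labels' protocols the libraries were strand-specific and poly(A)-selected. Trimmomatic, FastQC, HISAT2, SAMtools, StringTie and DESeq2 and the build mm10 are named in the submitters' processing notes, without roles or versions. The annotation and the use of strand are not given in the sources used here. Per the file headers, each library has a deposited table of TPM, FPKM and coverage per gene. The deposited coverage was used only for depth (its median ratio to the authors' FPKM, in gigabases), and the authors' FPKM only in an alternative.

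TPM were summed over repeated rows (0 kinesins had any). Genes with at least 1 TPM in at least 2 libraries, 13984, were fitted as log2(TPM + 1) with limma 3.58.1 in R 4.3.3, genotype as the only term, and Benjamini-Hochberg adjustment over all genes at 0.05. Fold changes on this scale understate those of low genes. The fit was tested on simulated data. Members and lists were chosen with earlier results of these data known.

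Genes named with values were members past the threshold, with non-overlapping groups and a log2 fold change of at least 0.5 in size, all mitotic members, the 3 most abundant of each role, Kif7 and Kif18b. Others were added to complete their subfamilies after values were seen. Alternatives changed the pseudocount, filter, unit, scaling, variance prior, pairing, repeated rows, length and GC content (GENCODE M21, 97.9% of tested genes), and each library in turn. The deviations of the replicates numbered 1 in both groups correlated at 0.126 across genes. Since the labels tie no replicate number to a litter or day, the numbers were treated as names only.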

Additional observations from a re-analysis of the deposited data

How the results depend on the processing

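No kinesin was called in any of the 16 alternatives, whose lowest adjusted p-value was 0.0552 (Kif26a, block plus correction). With 2 libraries a group, the intervals of single members were wide, and a p that misses the threshold does not show that levels were equal. Of 35 members, 22 kept their sign throughout, among them Kif1a, Kif5a, Kif5c, Kif19a, Kif21b and Kif26a. The length and GC correction, alone and with the replicate block, was chosen after seeing the data. Except where stated, the cause was not tested.

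The count of 69 called genes over the whole table was 44 at a pseudocount of 0.1, 15 with no filter beyond a value above 0 (more genes tested), 127 with FPKM and 110 with a mean-variance trend. It was 265 with the replicate block and 294 when the block was joined by a correction for length and GC. It was 10 to 37 when 1 library was left out, lowest without control replicate 1 (14 without control replicate 2, 18 without Isl1cKO replicate 2, 37 without Isl1cKO replicate 1), where fewer samples were fitted and the lone library was assumed to vary like the others. Of the partner genes 1 adaptor (Arl8a) passed with a mean-variance trend.

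The mitotic median of -0.08 turned to 0.00126 once length and GC were corrected for, whether or not replicates were blocked. It ranged from -0.15 to 0.00805 when 1 library was left out. The cargo median ranged from -0.35 to -0.13 and the median of the 24 other kinesins from -0.29 to -0.12 when 1 library was left out. The mitotic share differed by 2.42 to 4.55 percentage points when 1 library was left out.

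Members with a small fold change turned sign. FPKM gave Kif1c 0.0435, Kif22 0.0317, Kif7 0.000360 and Kifc2 0.000110. Median-ratio scaling gave Kif1c 0.0511, Kif22 0.0380, Kif7 0.00635 and Kifc2 0.00532, and upper-quartile scaling Kif1c 0.0428 and Kif22 0.0296. Quantile normalization gave Kif1c 0.0602, Kif22 0.0208, Kif27 0.0561, Kif7 0.0357 and Kifc2 0.0812. Correcting for length and GC, also together with the block, gave Kif11 0.0106, Kif18a 0.0200, Kif1c 0.108, Kif22 0.00126, Kif27 0.00291, Kif4 0.00332, Kif7 0.0555 and Kifc2 0.0107. When 1 library was left out, the ranges were -0.334 to 0.0107 for Kif15, -0.0191 to 0.0975 for Kif16b, -0.147 to 0.0153 for Kif18a, -0.134 to 0.127 for Kif1c, -0.300 to 0.00243 for Kif20b, -0.0442 to 0.00805 for Kif22, -0.0847 to 0.120 for Kif23, -0.00207 to 0.0697 for Kif2c, -0.145 to 0.0125 for Kif4, -0.137 to 0.0442 for Kif7 and -0.168 to 0.0803 for Kifc2.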
